A study of Danio rerio with 12 samples.

Results

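The comparison of retinoic acid (RA) with its solvent DMSO in endodermal cells took up 6 of the 12 ATAC-seq samples of the series, 3 treated with RA and 3 with DMSO. All embryos carried the sox17:GFP transgene, in which the sox17 promoter drives GFP in the endoderm, and GFP+ cells were sorted from zebrafish embryos at the 3-somites stage. The embryos had been kept from an early cleavage stage in 1 µM RA, or in 0.1% DMSO as the control, and about 10000 cells were taken per sample. The other 6 samples, used here as a reference, were GFP+ cells of embryos given 1 µM BMS493, an inverse agonist that locks the RA receptors in their repressing state, and GFP- cells, which are non-endodermal (NE), from embryos given DMSO. The samples were chosen by their labels alone. Nothing states whether the samples of a condition came from separate clutches, so the p-values measure the spread between these samples.

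RA is made from vitamin A and acts as the ligand of the RA receptors (RARs), which sit on DNA as dimers with the retinoid X receptors (RXRs). Without ligand, the dimers recruit corepressors and histone deacetylases, and ligand binding exchanges these for coactivators and histone acetylases. RA patterns the endoderm along its anteroposterior axis, is required for the pancreas, and induces hox genes as well as the enzymes that remove it. In ATAC-seq a transposase inserts adapters into DNA that is free of nucleosomes, so that open regulatory elements appear as peaks.

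Each deposited list holds the peaks of 1 sample. The height of a peak is its pileup, the number of extended tags at its summit. Merging the peaks of the 12 lists wherever they shared 1 bp or more gave 245646 regions on the Zv9 assembly, of which 174904 were called in at least 1 RA or DMSO sample. The lists held 83515 to 116700 peaks in RA, and 51301, 110584 and 121433 in DMSO, where replicate 1 had by far the shortest list. The headers gave 12490641 to 15319779 tags after duplicate removal in RA and 11951035 to 16449168 in DMSO. Neither total tags, tags after duplicate removal, number of peaks, median width, summed width nor median pileup differed between RA and DMSO (exact two-sided permutation tests, p from 0.6 to 1, adjusted p of 1 for each over the 6 values). With 3 samples against 3 no p below 0.1 is possible. The endodermal label was checked at sox32, the gene of a SoxF factor that initiates the endodermal programme. Of 28 regions within 50 kb of its transcription start site (TSS), 4 had a call in each of the 9 endodermal samples while NE samples had none, and the reverse was seen at 0. Near gata6, the gene of an endodermal GATA factor, both counts were 0 of 26 regions, and 6 regions were called in all 12 samples. Regions at -25.32 and -28.65 kb from its TSS each had a call in 8 of the 9 endodermal samples and in no NE sample. Cell composition was not measured, and more open cells and more open DNA per cell cannot be told apart in these bulk samples.

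Regions called in all 6 samples outnumbered those called in every sample of 1 condition and in none of the other. All 6 samples called 35816 regions, while 1684 had a call in each RA sample but none in DMSO (RA-only regions, 0.963% of the regions called in either condition). The reverse was true of 625 regions (DMSO-only regions, 0.357%). Calls in 1 sample alone were far more frequent, with 29455 regions in 1 RA sample and no DMSO sample and 32022 in the opposite case. The short list of DMSO replicate 1 weighed on the DMSO-only count, which was 5981 without this sample, while the RA-only count was then 1755. With every list cut down to its 51301 most significant peaks, as many as the shortest list holds, the counts were 1347 and 1035. Without DMSO replicate 2 or 3, the RA-only count was 3163 or 3724, and without RA replicate 1, 2 or 3 it was 2808, 3088 or 4146. The DMSO-only count was 987 without DMSO replicate 2 and 2159 without RA replicate 1. Leaving out a sample loosens the rule for both sets, so these counts could not fall. A region without a peak is not thereby closed, because signal below the threshold is not listed.

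**Figure D1:**
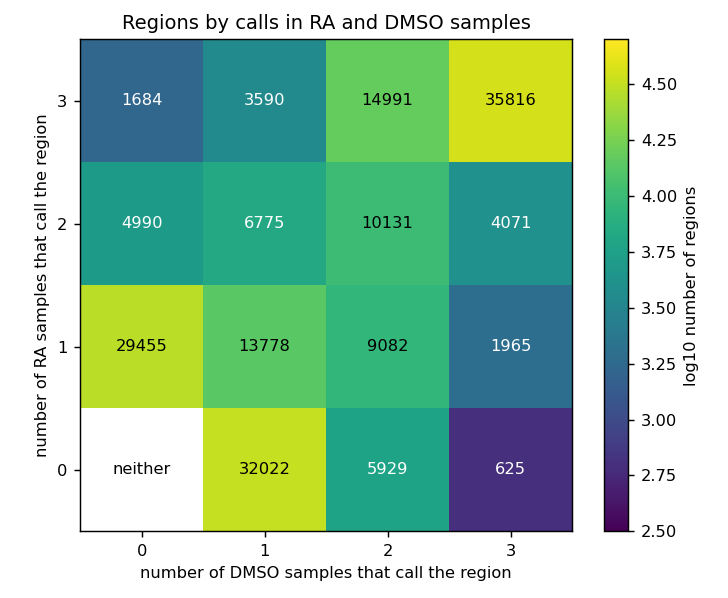
Number of regions (in each cell, coloured by its log10) by the number of DMSO samples (x axis) and RA samples (y axis) that call them. The 35816 regions of the upper right corner were called in all 6 samples, the 1684 of the upper left in RA only and the 625 of the lower right in DMSO only.

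The RA-only regions were narrower and lower than the shared ones. Their median width was 253 bp, against 430 bp for regions called in all 6 samples, and their median pileup was 10, 10 and 9 in RA replicates 1, 2 and 3, against 23, 18 and 15 for the shared regions. No BMS493 sample called 1126 of them (66.9%, beside 37.6% of all regions called in RA or DMSO), and no NE sample called 960 (57.0%, beside 62980 of 174904). A further 174 (10.3%, beside 32.3%) were called in all 3 NE samples. Of the 625 DMSO-only regions, all 3 BMS493 samples called 281 (45.0%, beside 29.3% of all regions) and none called 40 (6.40%, beside 37.6%). The BMS493 and NE lists did not enter the definition of either set. The regions set beside them include those called in all 6 samples and those called in 1 sample alone. They are thus not matched to either set in height or number of calls.

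Peak heights were compared in the 35816 shared regions, where a value is known in every sample, with limma on the log2 pileup after quantile normalization. At a Benjamini-Hochberg adjusted p under 0.05, 272 regions (0.759%) had taller peaks in RA and 131 (0.366%) lower peaks. The differences of the taller regions ranged from 0.62 to 1.95 on the log2 scale with a median of 1.01, and those of the lower regions had a median of -1.05. In 263 of the 272 taller regions the deposited pileup of every RA sample exceeded that of every DMSO sample. Among the lower regions this held in the opposite sense for 47 of 131. Both sets were selected on the heights of these same samples, and the share of such regions among all shared regions was not computed. The deposited pileup is not scaled between samples. Over all shared regions its median was 11, 20 and 21 in DMSO replicates 1, 2 and 3 and 23, 18 and 15 in RA. The counts of 263 and 47 can therefore not be compared with each other. With the deposited fold enrichment over local background in place of the pileup, limma called 37 taller and 28 lower regions, of which 36 and 28 were among the former. Leaving out RA replicate 2 left 17 and 10, RA replicate 3 75 and 56, DMSO replicate 2 150 and 37, and DMSO replicate 3 104 and 17. Without RA replicate 1 the counts were 350 and 390. In these settings the differences of the called regions kept their sign, except for 1 taller region with fold enrichment.

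**Figure D2:**
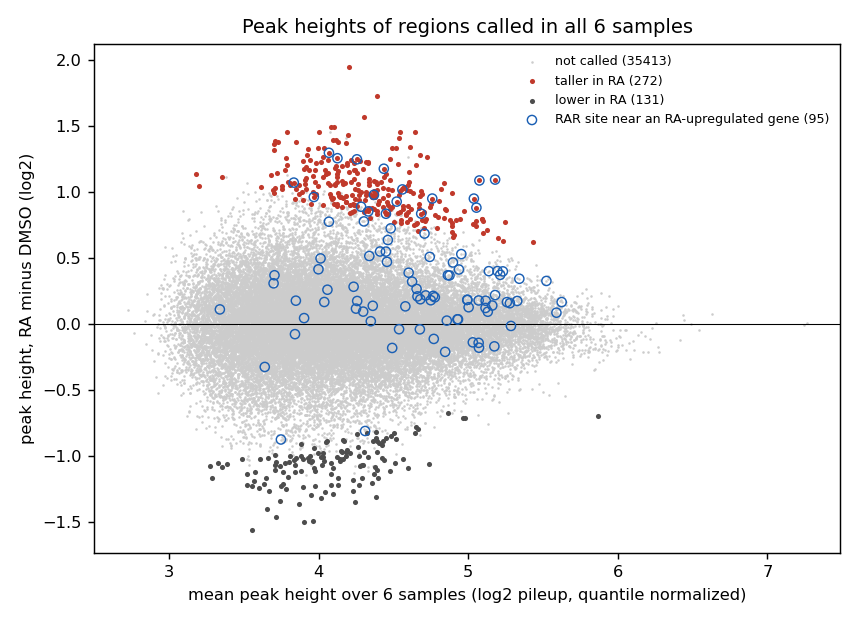
Difference in peak height between RA and DMSO (y axis, log2) against the mean height over the 6 samples (x axis, log2 pileup after quantile normalization) for the 35816 regions called in all 6 samples. Red and dark points are the 272 taller and 131 lower regions, and blue circles mark the 95 regions at RAR sites near RA-upregulated genes, of which 81 lie above 0.

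The region with the smallest adjusted p lay at chr16:49433441-49433846. Its pileup was 6, 11 and 13 in DMSO and 46, 40 and 30 in RA, so that the lowest RA sample stood above the highest DMSO sample. The difference was 1.95 ± 0.21 (SE) on the log2 scale, or 3.86-fold (limma, adjusted p = 0.000105). It was called in 1 of 3 BMS493 and 1 of 3 NE samples, with a pileup of 9 in each, and no gene was assigned to it in the tables used here. It lies downstream of nr2f5 (chr16:49358592-49391556), a gene that the study lists as raised by RA, beyond the 50 kb window used below. The region that followed, at chr1:6712516-6712948, is assigned to si:ch211-190d13.1 and had pileups of 8, 13 and 14 in DMSO against 37, 47 and 39 in RA (limma, log2 difference 1.73 ± 0.21, adjusted p = 0.00036). Here too the groups did not overlap, and the pileup was 8 to 14 with BMS493. This region also lies within 50 kb of the TSS of eng1b, a gene that the study lists as raised by RA.

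The next region, at chr1:38651038-38651580, lay at -46.9 kb from the hand2 TSS. The product of hand2 is a bHLH transcription factor of the heart, fin buds and pharyngeal arches. The pileup was 10, 15 and 17 in DMSO and 48, 40 and 35 in RA (limma, log2 difference 1.45 ± 0.18, adjusted p = 0.000526). A region at chr25:15526240-15526617, had no gene assigned and pileups of 8, 14 and 13 in DMSO and 37, 34 and 38 in RA (limma, log2 difference 1.57 ± 0.21, adjusted p = 0.000827). The last of the 5, at chr12:36846481-36847046, lay at -17.1 kb from the TSS of fscn2b, which codes for an actin-bundling fascin. Its pileup was 10, 18 and 18 in DMSO and 45, 44 and 35 in RA (limma, log2 difference 1.34 ± 0.18, adjusted p = 0.000827). It overlapped a RAR site, and the study lists fscn2b among the genes that RA lowers. With fold enrichment the difference was 0.66 and was not called (limma, adjusted p = 0.104, against 0.0239 at hand2, where the difference was 0.82). In all 5 regions every RA sample was above every DMSO sample, but the 5 were chosen for their small adjusted p on these same heights.

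Of the regions with lower peaks, the first lay in an intron of ebf1a at chr14:36216521-36217365, 34.1 kb from the TSS. The gene codes for an EBF transcription factor. The pileup was 15, 30 and 33 in DMSO and 11, 9 and 8 in RA (limma, log2 difference -1.49 ± 0.22, adjusted p = 0.00238). With BMS493 it was 23, 33 and 26 and in NE 28, 41 and 27, so that RA was below all other samples. A region 11.1 kb from the TSS of pcdh10b, a protocadherin gene that the study lists as lowered by RA, had pileups of 16, 27 and 31 in DMSO and 12, 10 and 6 in RA (limma, log2 difference -1.50 ± 0.24, adjusted p = 0.00302). It lies at chr14:45354038-45354614. The other 3 of the 5, at chr9:27226539-27226911, at chr14:5290458-5290874 and on the scaffold Zv9_scaffold3504, had no gene assigned and log2 differences between -1.56 and -1.09 (limma, adjusted p from 0.00302 to 0.00467). The region on Zv9_scaffold3504 lost its call with fold enrichment, where the difference was -0.59 (limma, adjusted p = 0.122). Over the 10 regions named from the height comparison, limma made the same call in 121 of 123 alternative fits that could include them, and the direction did not turn in any. These regions were chosen for their small adjusted p and the fits share samples, so the direction could hardly turn. Without RA replicate 2, limma called 17 of all 272 taller and 9 of all 131 lower regions again.

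Pileups were also turned into percentile ranks within each sample, with 0 where no peak was called, so that regions missing from some lists could be compared. limma was fitted to the 127026 regions called in at least 3 of the 12 samples. At an adjusted p under 0.05, 246 regions (0.194%) ranked higher in RA and 46 (0.0362%) lower, and of these 190 and 7 were RA-only or DMSO-only regions. Of the 246, 224 had calls in fewer than 3 samples of the other groups and reached the minimum of 3 only with their RA calls. Such a filter favours a difference, so these 224 are given as a description without a p-value below. The other 22, and 45 of the 46, also had calls in at least 3 samples of other groups. All regions were corrected for multiple testing together, so the adjusted p-values of this fit, here and below, depend in part on the 224. The calls of this fit were not stable. With the RA and DMSO samples alone limma called 0 regions in either direction (4212 higher and 1700 lower at an unadjusted p under 0.05). Without 1 sample it called 1 and 5 (DMSO replicate 1), 3 and 2 (DMSO replicate 2), 5 and 1 (DMSO replicate 3), 94 and 240 (RA replicate 1), 0 and 6 (RA replicate 2) or 0 and 6 (RA replicate 3). Where an RA sample was left out, only 88 of the 246 regions still reached the minimum of 3 samples. With lists of the same length, 1062 regions ranked higher and 518 lower. With such lists 506 and 353 were called from the RA and DMSO samples alone, and 300 to 856 and 180 to 997 without 1 of the 6 samples, a check that was chosen after seeing the data.

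The 10 regions ranked higher with the smallest adjusted p were nearly all on in RA and off in DMSO, a form that the rank of 0 for a missing call favours. The first lay at -1.59 kb from the TSS of znf503, a gene for a zinc finger corepressor, with ranks of 95.5, 94.3 and 88.3 in RA, no call in DMSO or BMS493 and pileups of 14, 25 and 14 in NE. A region at -3.6 kb from the TSS of her6, a bHLH repressor gene of the hairy family, at chr6:36334919-36335114 had ranks of 89.9, 75.5 and 91.8 in RA and was called in no other sample of the series. The region at the promoter of skila, which codes for a Ski-like corepressor of TGF-beta signalling, had ranks of 93.4, 93.0 and 75.8 in RA and was called in all NE samples but in no DMSO or BMS493 sample. The differences in mean rank were 92.7 at znf503 and 87.4 at skila (limma, adjusted p = 0.028 for each, and up to 0.176 and 0.181 under the other settings). Only these regions and 1 on chromosome 4 among the 10 named as higher passed the filter without their RA calls. The differences of the 10 ran from 84.0 to 92.7, and the other 7 lie near TMEM128, si:dkey-282o23.1, si:ch73-4e5.1, si:dkey-119p2.1 and a 5S_rRNA gene or, in 2 cases on chromosomes 4 and 20, have no gene assigned.

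In the opposite direction, the smallest adjusted p belonged to a region on the scaffold Zv9_NA126. Its pileup was 53, 52 and 51 in DMSO, 59, 47 and 51 with BMS493 and 62, 61 and 72 in NE, and no RA sample called it (limma, rank difference -99.6, adjusted p = 2.7e-06). With ranks of −log10(q) the difference was -22.1 (limma, adjusted p = 0.886), and the call was also lost with a −log10(q) minimum of 3 (0.116) and with the RA and DMSO samples alone (0.176). The other 9 shared an adjusted p of 0.028 in limma with rank differences from -86.3 to -66.5. One of them, at chr13:34079564-34080087, lay at -28.2 kb from the TSS of flrt3, a gene for a membrane protein that binds FGF receptors. Its pileup was 11, 24 and 21 in DMSO, 0, 0 and 7 in RA and 16, 21 and 17 with BMS493, and NE samples had 23, 39 and 26. The 10 regions were called in all BMS493 and NE samples, as were 43 of the 46 ranked lower, beside 22.0% of the regions called in RA or DMSO. The fit pooled the spread of all 12 samples, so small p-values go more readily to regions that vary little in BMS493 and NE. Across the alternative settings these 20 regions passed the threshold in 107 of 260 fits. Their direction could hardly turn, since most had no call at all in one of the groups.

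The study combined RNA-seq with RAR chromatin immunoprecipitation to list RAR sites near genes that RA raised or lowered. These lists did not use the ATAC-seq data, but the sites come from whole embryos given RA before fixation. Within 50 kb of the TSS of the 94 upregulated genes lay 2342 regions, and 1620 near the 61 downregulated genes. RA-only regions made 47 of 1868 (2.52%) near upregulated and 8 of 1226 (0.653%) near downregulated genes, beside 0.963% of all regions. DMSO-only regions made 4 (0.214%) and 6 (0.489%), beside 0.357%. Among shared regions near upregulated genes 19 of 515 (3.69%) were taller in RA and 1 (0.194%) was lower. Near downregulated genes 1 of 341 (0.293%) was taller and 6 (1.76%) were lower. Of all shared regions, 0.759% were taller and 0.366% lower. With lists of the same length, RA-only regions made 46 of 1094 near upregulated and 6 of 702 near downregulated genes, beside 1347 of all 86383, and DMSO-only regions 14 and 17, beside 1035 of all. The RA-only count near upregulated genes was 47 without DMSO replicate 1, 78 or 83 without DMSO replicate 2 or 3 and 81 without RA replicate 3. Near downregulated genes these 4 values were 8, 16, 20 and 21. Counts of RA-only regions could not fall when a sample was left out, and their shares were not computed. The count of taller regions near upregulated genes was 38 without DMSO replicate 1, 12 or 10 without DMSO replicate 2 or 3, and 18, 3 or 10 without RA replicate 1, 2 or 3. In this order they made 5.23%, 2.30%, 1.93%, 3.48%, 0.570% and 1.82%. Of all shared regions, 0.769%, 0.415%, 0.288%, 0.967%, 0.0459% and 0.196% were then taller. The count of lower regions near downregulated genes was 4, 2 and 1 without the DMSO replicates in this order and 13, 1 and 2 without the RA replicates. They made 0.879%, 0.587%, 0.292%, 3.81%, 0.280% and 0.548%. Of all shared regions, 0.213%, 0.102%, 0.0471%, 1.08%, 0.027% and 0.146% were then lower. With fold enrichment in place of the pileup, 1 shared region near the upregulated genes was taller (0.194%, beside 0.103% of all). Near the downregulated genes 1 was lower (0.293%, beside 0.0782%).

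By gene, 33 of the 94 upregulated genes had at least 1 RA-only region within 50 kb, and 20 had a shared region with a taller peak. For downregulated genes these counts were 7 and 1 of 61. In the opposite direction, 5 upregulated and 6 downregulated genes had a DMSO-only region, and 1 and 6 had a shared region with a lower peak. A share over all genes was not computed. At 76 upregulated genes more regions were called in a larger number of RA than of DMSO samples than the reverse, and the opposite held at 13. At the downregulated genes the counts were 11 and 41. Counted by region and not by gene, 61485 of all regions were called in more RA than DMSO samples and 53694 in fewer. Windows of neighbouring genes overlap, so in these counts by gene the same region can count for several genes. In the shares by region given before, each region was counted once per set of genes.

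**Figure D3:**
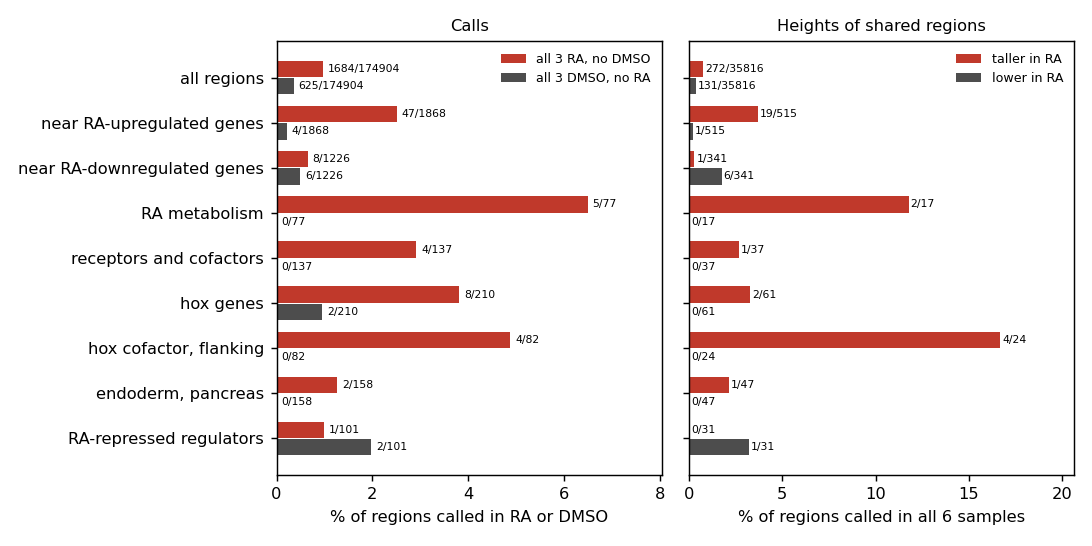
Percentage of regions called in RA only or DMSO only (left, of the regions called in RA or DMSO) and of shared regions with taller or lower peaks in RA (right, of the regions called in all 6 samples) within 50 kb of the TSS of each group of genes, with the counts beside the bars. Near RA-upregulated genes 47 of 1868 regions were RA-only and 19 of 515 were taller, beside 1684 of 174904 and 272 of 35816 among all regions.

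Most RAR sites near upregulated genes were called with and without RA. Of 194 sites near upregulated genes, 182 overlapped a region and 98 were called in all 6 samples, while 14 were called in none. The sites were called in 52.6%, 75.3% and 80.9% of cases in DMSO and in 86.6%, 85.6% and 77.3% in RA, so that the groups overlapped. Of all 245646 regions, the same samples called 19.5%, 41.7% and 46.3% in DMSO and 44.8%, 35.6% and 31.3% in RA. Of the 178 regions at these sites that were called in RA or DMSO, 5 (2.81%, beside 0.963% of all) were RA-only and none was DMSO-only. In height, 17 of the 95 shared regions (17.9%) were taller in RA and none was lower, beside 0.759% and 0.366% of all shared regions. The median difference over the 95 was 0.26 on the log2 scale and 81 were above 0, against -0.0027 and 49.6% over all shared regions. Without DMSO replicate 1, 31 of 133 regions were taller. Without DMSO replicates 2 and 3 and RA replicates 2 and 3 the counts were 10, 8, 2 and 9. Without RA replicate 1, 17 of 95 were taller and 2 were lower. With fold enrichment the count of taller regions was 0, the median difference 0.06, and 57 of the 95 were above 0.

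The 17 taller regions belong to sites of 16 genes, with differences from 0.84 to 1.30 on the log2 scale (1.79- to 2.46-fold). In each of them the lowest RA pileup exceeded the highest DMSO pileup. The regions had been selected on the heights of these samples, and such separation was not counted over the other RAR-site regions. The median over the regions of the mean pileup was 16.0 in DMSO and 33.7 in RA, and was 13.7 with BMS493 and 18.7 in NE. The largest difference was at tshz1, a gene for a teashirt zinc finger protein, at chr19:21870370-21870745, where the pileup was 7, 16 and 11 in DMSO and 30, 27 and 27 in RA (limma, log2 difference 1.30 ± 0.23, adjusted p = 0.00729). No BMS493 sample called this region. At nfia, the gene of a nuclear factor I protein, the pileup was 9, 10 and 14 in DMSO and 33, 34 and 21 in RA (limma, log2 difference 1.26 ± 0.23, adjusted p = 0.00806). At fabp3, which codes for a fatty acid binding protein, it was 6, 20 and 17 against 40, 29 and 26 (limma, log2 difference 1.25 ± 0.24, adjusted p = 0.0118). The other sites were at ror1, sult6b1, oaz2b, masp1, TSHZ3 (2 regions) and at genes described below. The 5 RA-only regions lay at sites of cyp26b1, tshz1, fgg, epb41l4a and EFNA2.

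**Figure D4:**
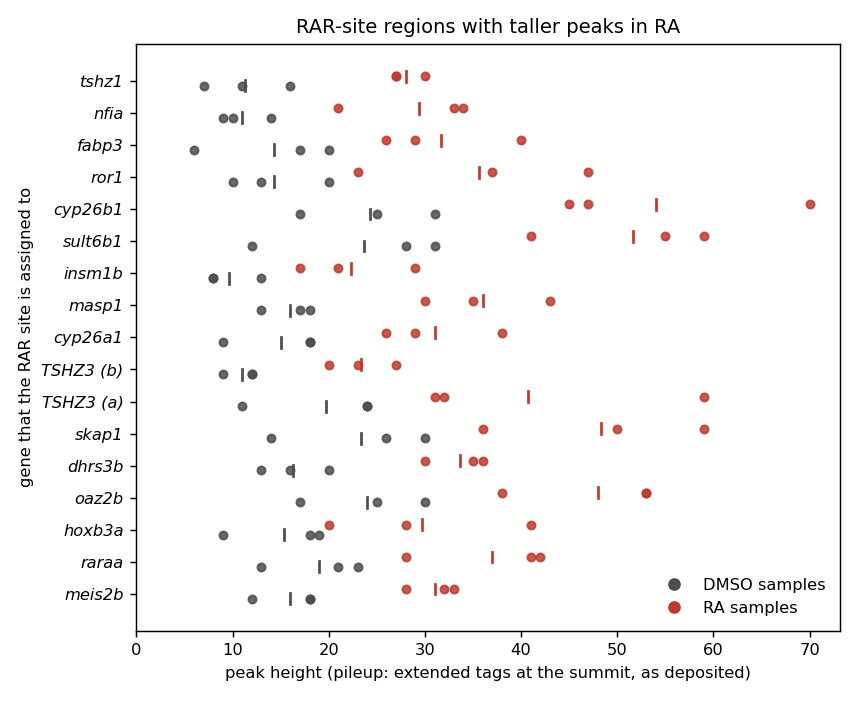
Deposited pileup (x axis, extended tags at the summit) in each DMSO and RA sample for the 17 RAR-site regions with taller peaks in RA near RA-upregulated genes, ordered by their difference. Points are samples, coinciding points overlie each other, and vertical bars are group means. In each row all 3 RA points lie to the right of all 3 DMSO points, and the regions were selected on the heights of these samples.

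Among the 72 regions at 82 RAR sites near downregulated genes, shared regions were taller in 1 case and lower in 1 of 30 (3.33% each, beside 0.759% and 0.366% of all). The taller one was the fscn2b region given above. The lower one was assigned to irx5a, which codes for an Iroquois homeodomain protein, and lies at chr7:37290229-37290705. Its pileup was 26, 39 and 33 in DMSO and 27, 16 and 12 in RA, so that the groups overlapped in the raw values (limma on normalized heights, log2 difference -1.02 ± 0.20, adjusted p = 0.0113). Of the 47 shared regions at RAR sites in conserved noncoding elements, 5 were taller and 1, the same irx5a region, was lower. The taller ones were at cyp26a1, nfia, rnf220a, skap1 and TSHZ3.

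The genes of RA metabolism had the highest share of RA-only regions of the groups examined. They comprise cyp26a1 and cyp26b1, whose cytochrome P450 products degrade RA, and dhrs3a and dhrs3b, whose products reduce retinaldehyde to retinol. Within 50 kb of their TSSs, 5 of 77 regions (6.49%, beside 0.963% of all) were RA-only and none was DMSO-only. At least 1 of the 5 lay near each of the 4 genes. Among shared regions 2 of 17 (11.8%, beside 0.759%) were taller, and the median difference was 0.22 on the log2 scale, beside -0.0027 for all shared regions.

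The cyp26a1 promoter was open in every sample and taller in RA. The region at chr12:9712011-9712939 covers the TSS and a RAR site, and its pileup was 9, 18 and 18 in DMSO and 38, 29 and 26 in RA (limma, log2 difference 0.98 ± 0.20, adjusted p = 0.0125). BMS493 samples had 14, 15 and 12. Downstream of this start, RA-only regions lay at 28.4 and 45.5 kb, with pileups of 7, 12 and 7 and of 12, 12 and 9, and neither was called with BMS493 or in NE.

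The surroundings of cyp26b1 held the group with the most regions gained with RA. RA-only, higher ranked or taller regions numbered 2012 in all, and when those within 50 kb of each other were joined, 10 of them fell into the interval chr7:26391692-26574942 around this gene. One other interval, with 6, lay in the hoxc cluster, and no other reached 6. How many regions each interval holds in all was not counted, so no share stands beside these counts. The gained regions were selected on these same samples and include the higher ranked ones, whose calls were not stable. The promoter region of cyp26b1 had pileups of 8, 19 and 18 in DMSO and 47, 46 and 29 in RA (limma, log2 difference 1.41 ± 0.20, adjusted p = 0.0016). A region at -17.3 kb had 0, 7 and 7 in DMSO, 41, 29 and 20 in RA and 25, 37 and 16 in NE (limma on ranks, difference 84.1 ± 15.2, adjusted p = 0.0343), and was called in 1 of 3 BMS493 samples. The region 44.1 kb downstream of the start, at a RAR site, had 0, 0 and 8 in DMSO and 31, 28 and 18 in RA, with no call with BMS493 or in NE.

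Farther upstream of cyp26b1, 2 neighbouring regions at RAR sites differed in form. That at chr7:26435016-26435488 was open in all 6 samples, with 17, 25 and 31 in DMSO and 70, 47 and 45 in RA (limma, log2 difference 1.10 ± 0.17, adjusted p = 0.00238). The one beside it, at chr7:26435622-26436126, was called in RA alone, with pileups of 34, 22 and 15 and no call in any DMSO, BMS493 or NE sample. These regions lie outside the 50 kb window and were taken in through their RAR sites.

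Near dhrs3a, an RA-only region 12.4 kb from the TSS had pileups of 15, 13 and 11 and was called in no BMS493 or NE sample. Near dhrs3b, an RA-only region at 31.6 kb had 13, 9 and 8. A RAR-site region at chr11:29437250-29437574 had pileups of 13, 20 and 16 in DMSO and 36, 35 and 30 in RA (limma, log2 difference 0.93 ± 0.20, adjusted p = 0.019). It lies beyond 50 kb from the start of the longest dhrs3b transcript.

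**Figure D5:**
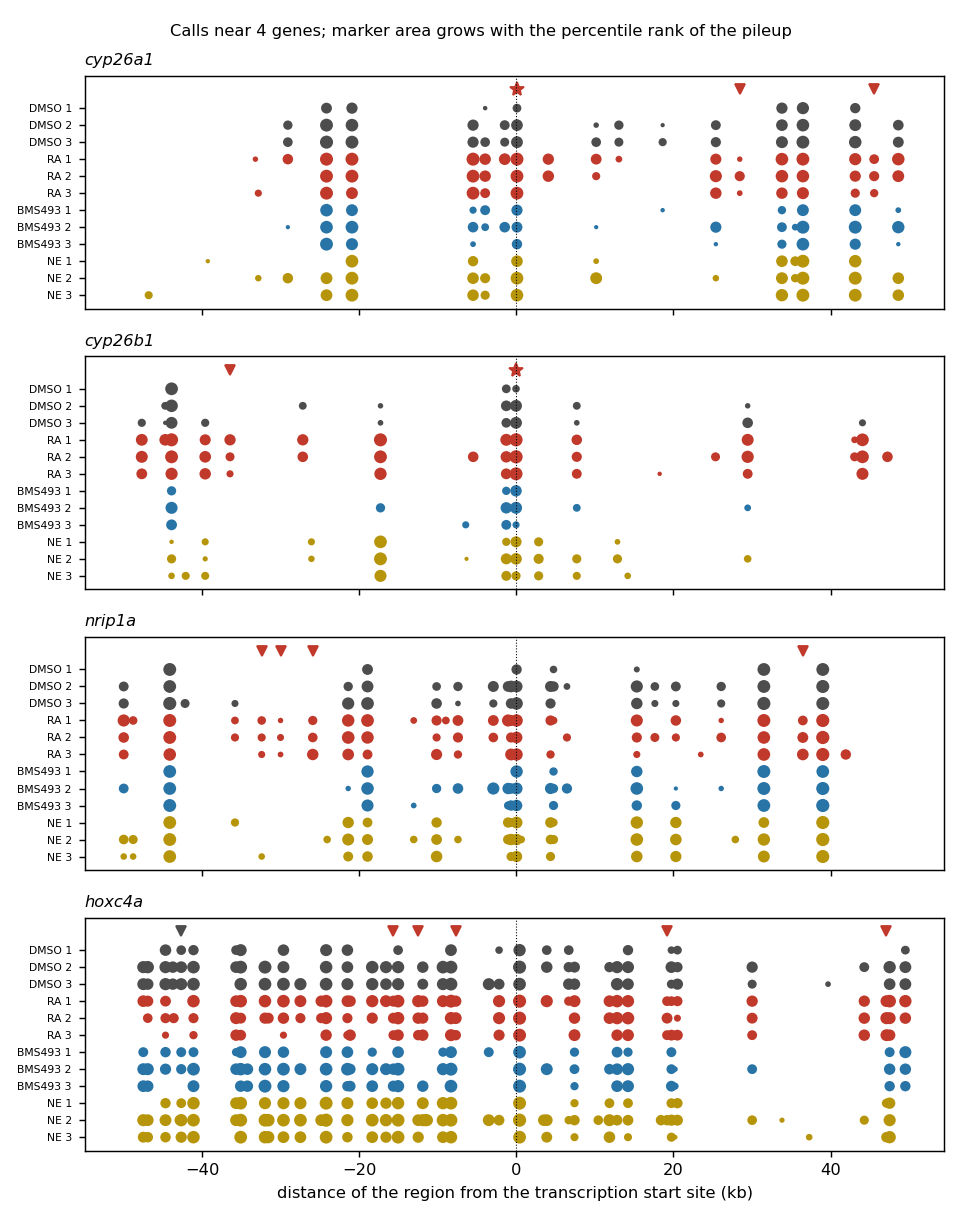
Regions within 50 kb of the TSS (x axis, distance in kb in the direction of transcription) of cyp26a1, cyp26b1, nrip1a and hoxc4a in each of the 12 samples (rows). A point marks a call and its area grows with the percentile rank of the pileup, red and dark triangles mark RA-only and DMSO-only regions, and red stars mark shared regions taller in RA. The number of RA-only regions is 2, 1, 4 and 5, and both stars lie at the start sites of the cyp26 genes.

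Among receptors and cofactors, 4 of 137 regions (2.92%, beside 0.963% of all) were RA-only and all 4 lay near nrip1a, which codes for a corepressor of ligand-bound nuclear receptors. They lay at -32.4, -30.0, -25.9 and 36.5 kb from the nrip1a TSS, and no BMS493 sample called any of them. The last had pileups of 12, 14 and 16 in RA, and at -25.9 kb they were 11, 11 and 15. At raraa, the gene of RAR alpha a, a RAR-site region at -1.52 kb from the TSS had 13, 21 and 23 in DMSO and 42, 41 and 28 in RA (limma, log2 difference 0.84 ± 0.18, adjusted p = 0.0183). With BMS493 it was called in 2 samples, with 20 and 11. No region passed a test near rarab and rxrgb, a second RAR alpha and an RXR gene that the study lists as lowered by RA, nor near the orphan receptor genes nr2f5 and nr6a1b. The taller region at chr16:49433441-49433846, named above, lies downstream of nr2f5 but outside its window. The 5 shared regions near nr2f5, a COUP-TF gene, were all above 0, with differences up to 0.63 (limma, smallest adjusted p = 0.215). Above 0 were also 5 of 6 near nr6a1b, but 2 of 6 near nrip1a and 5 of 11 near raraa. The median over the 37 shared regions of this group was 0.03.

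The hox genes encode the homeodomain factors that set position along the body axis. Of 10 in the list, 9 could be placed, and 8 of 210 regions near them (3.81%, beside 0.963% of all) were RA-only and 2 (0.952%, beside 0.357%) DMSO-only. Near hoxc4a and hoxc1a, whose windows overlap, lay 6 of the 8. The region at -0.12 kb from the hoxc1a TSS, at chr23:36229404-36229658, had pileups of 20, 20 and 17 in RA and no call in DMSO or BMS493, and in NE it had a pileup of 10 in 2 samples. The region at -7.71 kb from the hoxc4a TSS had 17, 18 and 12 in RA and was called nowhere else. One DMSO-only region lay at -42.65 kb from the same TSS, with pileups of 10, 18 and 19, and had a call in all NE samples. Of the 11 shared regions near hoxc4a, 3 were above 0 in height, with a median of -0.23 on the log2 scale. Near hoxc1a 6 of 9 were above 0, with a median of 0.16.

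In the hoxb complexes, a RAR-site region at -3.71 kb from the hoxb3a TSS was taller, with 9, 19 and 18 in DMSO and 41, 28 and 20 in RA (limma, log2 difference 0.85 ± 0.21, adjusted p = 0.042). It also lies in the windows of hoxb4a and hoxb1a. Of the shared regions near hoxb4a 5 of 14 were above 0, with a median of -0.05, and near hoxb1a 7 of 10, with a median of 0.14. A region 34.1 kb downstream of the hoxb1a start had 0, 0 and 7 in DMSO and 22, 22 and 17 in RA and no call with BMS493 or in NE. The other 2 RA-only regions lay at -3.75 and -24.12 kb from the hoxb1b TSS, with pileups of 17, 16 and 14 and of 16, 12 and 12 in RA. Near hoxa1a none of 14 shared regions was called, with a median of 0.31 and a highest difference of 0.73 (limma, smallest adjusted p = 0.0643). In the windows of hoxa3a and hoxa5a, which share it, 1 region was DMSO-only.

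The neighbours and cofactors of the hox genes had 4 of 24 shared regions taller (16.7%, beside 0.759% of all) and 4 RA-only regions of 82 (4.88%, beside 0.963%). Near skap1, an adaptor gene beside hoxb1b, the RAR-site region at chr12:28733559-28734049 had 14, 30 and 26 in DMSO and 59, 50 and 36 in RA (limma, log2 difference 0.95 ± 0.16, adjusted p = 0.00547). It lay 5.78 kb from the skap1 TSS and also counts as the second taller region in the hox windows. The RA-only regions of hoxb1b count here as well, since they lie in both windows. At meis2b, the gene of a TALE homeodomain partner of Hox proteins, a RAR-site region 24.6 kb from the start had 12, 18 and 18 in DMSO and 33, 28 and 32 in RA (limma, log2 difference 0.84 ± 0.20, adjusted p = 0.0398). An RA-only region 41.7 kb from the meis2b start had 16, 10 and 7. A second taller region near tshz1, 18.1 kb from its start, had 15, 20 and 27 in DMSO and 49, 39 and 30 in RA (limma, log2 difference 0.81 ± 0.18, adjusted p = 0.0217).

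The next group holds regulators of endoderm and pancreas. Of 158 regions near gata6, hnf1ba, hnf1bb, insm1b, mnx1, jag2b and ascl1a, 2 (1.27%, beside 0.963% of all) were RA-only, and 1 of 47 shared regions (2.13%, beside 0.759%) was taller. Both RA-only regions were near gata6, at 13.1 and 20.3 kb from its TSS, with pileups of 10, 8 and 8 and of 10, 12 and 10. They had no call with BMS493. The taller region was a RAR site 46.3 kb downstream of the start of insm1b, which codes for a zinc finger factor of endocrine cells. Its pileup was 8, 8 and 13 in DMSO and 29, 21 and 17 in RA (limma, log2 difference 1.07 ± 0.24, adjusted p = 0.0264). Near hnf1ba the 9 shared regions had differences from -0.36 to 0.27, and near mnx1 the 7 ran from -0.18 to 0.55, and neither gene had a region that passed a test (limma, smallest adjusted p = 0.504 and 0.433).

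Near otx2, gbx2, pou5f3, eya1 and lmx1bb, regulators of the head, placodes and early embryo that the study lists as lowered by RA, few regions passed a test. The median over their 31 shared regions was -0.24 on the log2 scale, 1 (3.23%, beside 0.366% of all) was lower and none was taller. The lower one lay 8.70 kb downstream of the gbx2 start, with 16, 32 and 25 in DMSO and 20, 10 and 11 in RA (limma, log2 difference -0.96 ± 0.23, adjusted p = 0.0334), so that RA replicate 1 lay within the DMSO values before normalization. A DMSO-only region 3.53 kb from the same start had pileups of 9, 13 and 13. The 6 shared regions near otx2 were all below 0, with a median of -0.47 (limma, smallest adjusted p = 0.163). Near lmx1bb 1 region was DMSO-only and 1, at a RAR site 45.0 kb from the TSS, was RA-only, with pileups of 9, 16 and 13 in RA and a call in all NE samples.

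Near foxg1b, a forkhead gene raised by RA, a region 31.7 kb from the TSS ranked lower in RA. Its pileup was 12, 18 and 21 in DMSO and 16, 18 and 16 with BMS493, and among RA samples it was called in replicate 1 alone, with 10 (limma on ranks, difference -62.3 ± 12.3, adjusted p = 0.0465).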

How the data were processed

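ATAC-seq of 3 RA, 3 DMSO, 3 BMS493 and 3 NE samples was compared, with conditions taken from the labels. The authors aligned paired-end reads to Zv9 with Bowtie2 and called peaks in each sample separately by MACS2 2.1.1.20160309, with no control library (q-value 0.05, shift 40 bp, extension 80 bp, at most 1 duplicate per position). The deposited pileup is a signal that was not scaled between samples, and under these settings it cannot exceed 160. The deposited fold enrichment is a ratio to the local background, and p-values and q-values were deposited as −log10. No reads, sequence or annotation of Zv9 were used here. Peak lists hold no counts under the threshold, so that depth limits what could be called.

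Peaks were merged with Python 3.11.15, pandas 2.3.3 and numpy 2.4.6. limma 3.58.1 (R 4.3.3, trend and robust options) tested the percentile ranks of regions called in at least 3 of 12 samples, with all 12 samples in the fit, and the quantile normalized log2 pileup of regions called in all 6. The Benjamini-Hochberg threshold was 0.05. Steps were tested on simulated data. Gene positions came from the study's tables of RAR sites (longest listed transcript) and of RA-responsive peaks, and the latter is shortened and served for gene names only. The named regions were the 10 per direction with the smallest adjusted p in the rank fit and the 5 per direction in the height fit, and named genes came from lists of RA metabolism, receptors, hox genes, cofactors, endodermal and RA-repressed regulators. The hoxb5b gene had no position in the table used. Joining gained regions within 50 kb, the genes named at RAR sites and those outside the lists were chosen after their values were seen. Members and lists were chosen with earlier results of these data known. NE replicate numbers differ between list headers and labels, and those of the labels were taken. Other settings tried were a −log10(q) minimum of 3, lists of the same length, merging within 100 bp, calls covering 50% of a region, chromosomes 1 to 25, ranks of −log10(q), no filter, RA and DMSO alone, median centring, fold enrichment, the replicate block and leaving out each sample.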

Additional observations from a re-analysis of the deposited data

How the results depend on the processing

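Peak lists limit what can be said, since weak signal is unlisted and the lists differ in length. Calls in RA only held within 1.5 times under the 5 other list settings, while the DMSO-only count was 333 if a call required 50% of a region to be covered and 1035 with equally long lists. Leaving out 1 sample gave 1755 to 4146 RA-only and 803 to 5981 DMSO-only regions. Near upregulated and downregulated genes it gave 47 to 83 and 8 to 21 RA-only regions. It loosens the rule for such calls, so these counts could not fall. For ranks, limma called 1062 higher and 518 lower with equally long lists, 0 and 0 with the RA and DMSO samples alone, 0 and 1 without the filter (6112 and 3237 at an unadjusted p under 0.05), 32 and 14 with ranks of −log10(q), and 0 to 94 and 1 to 240 without 1 sample. With equally long lists, in fits chosen after seeing the data, 506 ranked higher with the RA and DMSO samples alone, and 300 to 856 higher and 180 to 997 lower without 1 sample. For heights, limma called 37 taller and 28 lower with fold enrichment, 76 lower with equally long lists, and 17 to 386 taller and 10 to 390 lower without 1 sample. RAR-site regions numbered 0 with fold enrichment and 2 to 31 without 1 sample. Several of these settings change the samples and the regions tested together, and the causes of the changes were not tested.

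Same-numbered RA and DMSO samples did not deviate together (correlations of -0.15, -0.03 and -0.03 for ranks and -0.12, -0.03 and 0.01 for heights). These values cannot show whether same-numbered samples shared a clutch or a sorting day. With the replicate block, limma ranked 0 regions higher (5791 at an unadjusted p under 0.05) and 1 lower (3350), 760 and 347 with equally long lists, and called 250 taller and 129 lower peaks, of which 16 at RAR sites.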
